A study of Mus musculus with 30 samples.

Results

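The p53 target genes Cdkn1a, Mdm2, Ccng1, Trp53inp1, Zmat3, Phlda3, Sesn1, Bbc3 and Perp were followed across every library of the series. They were chosen by name, as genes that p53 is known to induce. The choice used no expression threshold, but it was made with earlier results of these data known. They are 9 of the 55421 genes in the count table, and all 9 lie on autosomes. The question was whether loss of an X chromosome, a deletion on the X or an extra autosome goes with a change in these genes.

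p53 is a transcription factor that is kept at a low level by Mdm2, a ubiquitin ligase that is itself a p53 target, so that the pair forms a feedback loop. DNA damage and other stresses release p53 from this control. It then binds sites in its target genes and induces genes that halt the cell cycle, repair DNA, restrain growth or start apoptosis. Mouse embryonic stem cells cycle rapidly and carry p53 protein without external damage. Transcript levels of targets are commonly read as a measure of p53 activity, although each target also answers to other factors.

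The 30 bulk RNA-seq libraries came from female mouse embryonic stem cells of a 129/Sv x Cast/Ei cross, in 17 conditions. There were 2 libraries of XX Wildtype cells and 2 of XX cells heterozygous for a deletion of Rnf12 (Rnf12 +/-), the parental genotype, in which the 129 copy of this X-linked ubiquitin ligase gene is deleted. The XO cells kept either the Cast X (XCastO129, 2 libraries) or the 129 X (X129OCast, 2 libraries). The 22 remaining libraries were of 13 lines that were Rnf12 +/- and heterozygous for one further X deletion. Deletions A, B, AB and C-G had 1 clone each, and deletions C, D, E, F, H, I, I-TEL, J and K had 2. The deletion lines had been selected with puromycin and geneticin, the first Rnf12 +/- parental line with puromycin only, and lines J and I-TEL came from a second Rnf12 +/- founder. The XO lines arose as cells that lost an X during this targeting. Cells of the Rnf12 +/- and deletion lines were grown on irradiated mouse embryonic fibroblasts, which were depleted by pre-plating before lysis. Where a condition had 2 libraries they were separate clones or samples as the labels number them, and p-values measure the spread between such libraries only.

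The libraries fell into 3 sets by the prefix of the library name. Wild type, Rnf12 +/- and deletion E made up a reference set of 6 libraries, the other 12 deletion lines a deletion set of 20, and the XO lines an XO set of 4, which alone was sequenced as single reads. Median counts in genes were 20705779, 10207863 and 15598784 per library in these sets. Levels are given as TPM, a measure of transcript abundance corrected for exon length and scaled to the same total in every library, computed from the deposited counts. Every member was detected in every library, from 87 counts at the least for Perp to 6625 at the most for Ccng1. A gene was called changed at an adjusted p under 0.05 in edgeR's quasi-likelihood test, with Benjamini-Hochberg adjustment over the 18316 genes tested, and all 9 members were among these.

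In the mm10 build with GENCODE M21 annotation, Cdkn1a (ENSMUSG00000023067) lies at chr17:29090976-29100727 on the plus strand and Ccng1 (ENSMUSG00000020326) at chr11:40748552-40755311 on the minus strand. Mdm2 (ENSMUSG00000020184) lies at chr10:117688875-117710758, Sesn1 (ENSMUSG00000038332) at chr10:41809935-41908424 and Perp (ENSMUSG00000019851) at chr10:18845020-18857073, far apart on one chromosome. Trp53inp1 (ENSMUSG00000028211) is at chr4:11156431-11174379, Zmat3 (ENSMUSG00000027663) at chr3:32334792-32366014, Phlda3 (ENSMUSG00000041801) at chr1:135766119-135769136 and Bbc3 (ENSMUSG00000002083) at chr7:16308393-16318205.

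The promoters were searched for the p53 site, a run of 20 bases made of 2 arms of 10 with no spacer, because the members share this regulator. RefSeq windows (GRCm38.p6, from 250 bases before to 50 after a start) were at hand for 6 members, in 10 windows. A site with at most 1 departure from the motif, on either strand, was in 2 of them, a Cdkn1a window and the Ccng1 window, and both sites lay upstream of the annotated gene. Of all 32851 windows, 22 (0.067%) held such a site, and of the 26 further p53 targets on a list below that had a window, 1 did (Gtse1). The sites are printed 5′ to 3′ on the strand of the gene, in capitals, with 5 bases on each side:
Cdkn1a, chr17:29090928-29090947, plus strand, 51 to 32 bases before the start: ttcagGAACATGTCTTGACATGTTCagccc
Ccng1, chr11:40755462-40755481, minus strand, 195 to 176 bases before the start: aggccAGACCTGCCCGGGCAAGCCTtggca
Distances above are from the start of the window that held the site, for Cdkn1a the more upstream window. The other windows of Cdkn1a, Mdm2, Phlda3, Sesn1 and Bbc3 came no closer than 3 departures. These are matches of letters. Binding was not measured here, and sites outside these windows were not searched.

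The labels were checked on Rnf12 (Rlim in the annotation) and on markers. Rlim stood at 211 and 193 TPM in wild type, 77.6 and 79.7 in Rnf12 +/-, 50.4 to 144 in the deletion lines, 71.2 and 77.8 in XCastO129 and 3.53 in both X129OCast libraries, which had 0 Cast reads of it. X129OCast thus lacked intact Rnf12 as well as the second X, and these cannot be told apart. None of 8 pluripotency markers was below 1 TPM throughout any library set, and their summed level was 8667 to 14994 TPM. Summed levels of 20 fibroblast markers, which a feeder cell would carry, ranged from 920 to 3794 TPM, and each of the 20 reached 1 TPM in some library. In bulk RNA, fewer cells of a type and less RNA per cell cannot be told apart.

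**Figure D1:**
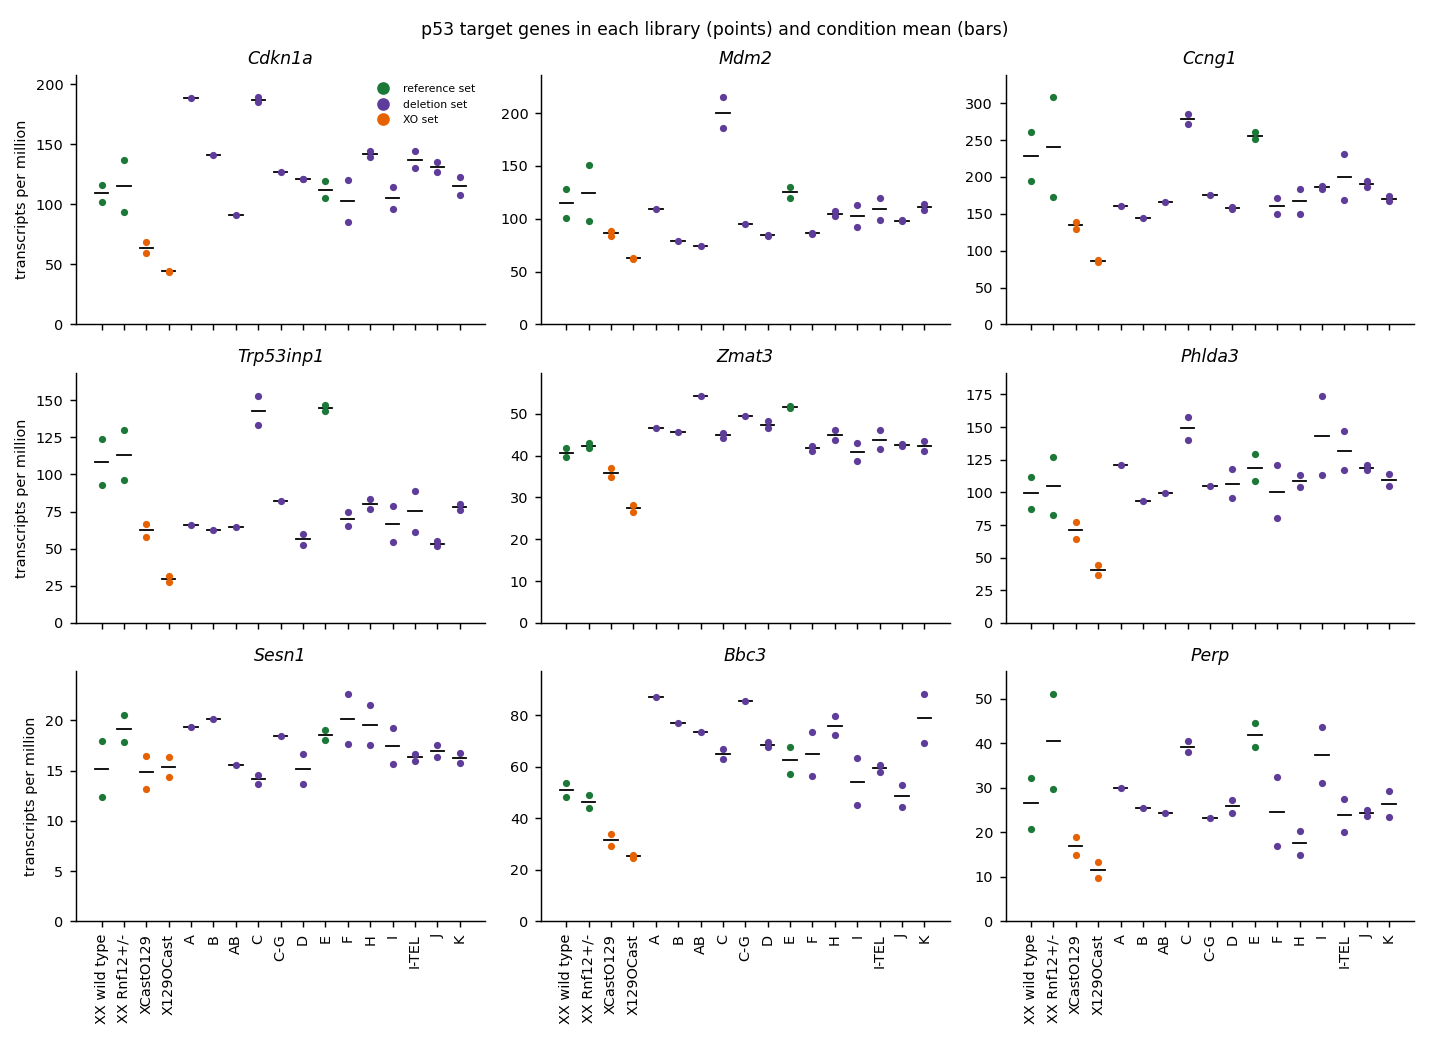
Level of each p53 target gene in TPM (y axis, from 0) by condition (x axis). Points are libraries, coloured by library set (green reference set, purple deletion set, orange XO set), and bars are condition means. The orange XO points are the lowest of most panels, and the 2 deletion C points stand above the other purple points for Mdm2, Ccng1 and Trp53inp1.

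The parental genotype was compared with wild type first, since both were in the reference set. No member was called (adjusted p over 0.05 in edgeR), against 2.75% of all genes, while 2 members had an unadjusted p under 0.05 and DESeq2 also called 0. Those 2 were Sesn1, a sestrin that restrains mTORC1, at 0.37 ± 0.17 (log2 fold change ± SE) and Perp, a membrane protein of desmosomes linked to p53-dependent apoptosis, at 0.63 ± 0.28. Both were higher in Rnf12 +/- in each pair of same-numbered libraries, Sesn1 at 20.5 against 17.9 and 17.8 against 12.4 TPM and Perp at 51.0 against 32.3 and 29.8 against 20.8 TPM. Replicate 1 was above replicate 2 for 8 of 9 members in Rnf12 +/- and for the same number in wild type, the exception being Bbc3 both times. Ccng1, which encodes cyclin G1, was at 261 and 195 TPM in wild type and at 308 and 173 in Rnf12 +/-. The fibroblast markers moved with it, at 2887 and 1086 summed TPM in wild type and 3794 and 1135 in Rnf12 +/-. Over 10103 genes the deviations of the same-numbered libraries of these genotypes from their means correlated at 0.8, a hint from the data that the labels do not explain. With the replicate number as a block in these 4 libraries, an alternative chosen after the data were seen, Sesn1 was at 0.38 ± 0.15 (edgeR, adjusted p = 0.192) and Perp at 0.62 ± 0.22 (adjusted p = 0.16), and again no member was called. Because Rnf12 +/- is the reference of the study, the counts of called members against it are also given below without its replicate 1.

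Loss of an X went with lower levels of most members. All 4 XO libraries were below all 4 XX libraries for 8 of the 9 genes, and below all 26 other libraries for Cdkn1a, Ccng1, Zmat3, Phlda3 and Bbc3. The share of all genes that separated in these ways was not counted. Against Rnf12 +/-, 34.7% of all genes were called in XCastO129 and 45.1% in X129OCast. Condition means of X129OCast were the lowest of all 17 for 8 members, and XCastO129 came next in 6 of them. The XO set held no other libraries, so X loss, library set and read type cannot be told apart in these comparisons.

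The cell cycle arm was represented by Cdkn1a (p21), an inhibitor of cyclin-dependent kinases, and Ccng1. For each member, the pairs of TPM levels of the XO lines and Rnf12 +/- run from low to high. Replicate 1 of Rnf12 +/- was the higher library for every member but Bbc3. Cdkn1a was at 93.5 and 137 TPM in Rnf12 +/-, 59.1 and 68.2 in XCastO129 and 43.5 and 44.8 in X129OCast. The 3 conditions did not overlap. Ccng1 was at 130 and 139 TPM in XCastO129 and at 84.4 and 87.0 in X129OCast, again below both Rnf12 +/- libraries. On the log2 scale Cdkn1a was lower than in Rnf12 +/- by -0.76 ± 0.15 in XCastO129 (edgeR, adjusted p = 0.000491) and by -1.24 ± 0.15 in X129OCast (adjusted p = 1.64e-06). Ccng1 was lower by -0.74 ± 0.18 (adjusted p = 0.00345) and -1.34 ± 0.18 (adjusted p = 7.85e-06).

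The feedback and stress members fell as well. Mdm2 was at 98.3 and 151 TPM in Rnf12 +/-, 84.1 and 88.9 in XCastO129 and 62.2 and 63.3 in X129OCast, with fold changes of -0.43 ± 0.14 (edgeR, adjusted p = 0.0248) and -0.84 ± 0.14 (adjusted p = 8.88e-05). Trp53inp1, a stress-induced nuclear protein that binds p53, was at 96.1 and 130 TPM in Rnf12 +/-, 57.9 and 66.9 in XCastO129 and 27.5 and 31.8 in X129OCast. It showed the largest fall of the 9 in X129OCast, at -1.78 ± 0.18 (edgeR, adjusted p = 1.37e-07), where its mean TPM was 0.262 of the Rnf12 +/- mean. In XCastO129 its fold change was -0.76 ± 0.17 (adjusted p = 0.00184). Zmat3, a zinc finger protein that binds RNA, moved least of the members called in X129OCast. It was at 41.8 and 43.0 TPM in Rnf12 +/-, 34.8 and 37.0 in XCastO129 and 26.5 and 28.3 in X129OCast. Of the XO lines it was called only in the latter (-0.48 ± 0.07, edgeR adjusted p = 2.27e-05).

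Among the members tied to cell death and survival, Bbc3 (Puma, a BH3-only protein of the mitochondrial pathway) was at 43.8 and 48.9 TPM in Rnf12 +/-, 29.3 and 34.0 in XCastO129 and 24.6 and 25.9 in X129OCast. Both falls were called, at -0.45 ± 0.15 (edgeR, adjusted p = 0.0277) and -0.73 ± 0.15 (adjusted p = 0.000765). Perp was at 29.8 and 51.0 TPM in Rnf12 +/-, 14.8 and 19.0 in XCastO129 and 9.68 and 13.4 in X129OCast, with fold changes of -1.16 ± 0.29 (edgeR, adjusted p = 0.00406) and -1.66 ± 0.30 (adjusted p = 0.000152). Phlda3, which opposes Akt signalling, was at 82.9 and 127 TPM in Rnf12 +/-, 64.2 and 77.4 in XCastO129 and 36.6 and 44.4 in X129OCast. Its fall was called in X129OCast (-1.23 ± 0.23, edgeR adjusted p = 0.000202) and not in XCastO129 (-0.47, adjusted p = 0.106). Sesn1 was the exception, at 17.8 and 20.5 TPM in Rnf12 +/- and 13.2 to 16.5 over the 4 XO libraries, overlapping the lower wild type library at 12.4, with no call in either XO line.

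Counted together, 6 of 9 members were called in XCastO129, all lower, where 34.7% of all genes were called and 18.5% were called lower. In X129OCast 8 of 9 were called, all lower, where 45.1% of all genes were called and 23.8% were called lower. The median of the members was -0.47 and -1.23 log2 in these lines, beside -0.04 and -0.06 over all genes tested. These shares and medians belong to the fit of all libraries, and none is given for the fits that follow. Without replicate 1 of Rnf12 +/- the count was 3 in XCastO129 (Cdkn1a, Trp53inp1 and Bbc3) and 8 in X129OCast. With the fit restricted to the groups compared it was 1 in XCastO129 (Trp53inp1) and 8 in X129OCast.

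Fibroblast markers were set beside these calls, in lines where 18.5% (XCastO129) and 23.8% (X129OCast) of all genes were called lower. The summed marker level was 3794 and 1135 TPM in Rnf12 +/-, 1048 and 1654 in XCastO129 and 968 and 1229 in X129OCast. Of the 20 markers, 7 were called lower in X129OCast, and 3 lower and 2 higher in XCastO129. These calls became 2 lower in X129OCast, and 2 lower and 3 higher in XCastO129, without replicate 1 of Rnf12 +/-. For 8 members the XO levels also lay below replicate 2 of Rnf12 +/- and replicate 2 of wild type, whose fibroblast sums of 1135 and 1086 TPM were within the XO range. What part RNA of feeder cells had in the size of the falls was not tested.

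The 2 XO lines shared a library set, so they could be compared without that limit. Both X129OCast libraries were below both XCastO129 libraries for 8 members, all but Sesn1. How many of all genes separated in that way was not counted. Of the 8 members, 2 were called, against 5.83% of all genes called and 2.79% called lower. They were Trp53inp1 (-1.02 ± 0.18, edgeR adjusted p = 0.00229) and Zmat3 (-0.35 ± 0.07, adjusted p = 0.00914). Cdkn1a, at -0.48 ± 0.15, Ccng1, at -0.60 ± 0.18, and Phlda3, at -0.76 ± 0.23, had adjusted p-values of 0.0637, 0.0559 and 0.0549 in edgeR, just past the threshold. DESeq2 called 5 members in this comparison, and a fit of these 2 lines alone called 0, with 6 at an unadjusted p under 0.05.

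**Figure D2:**
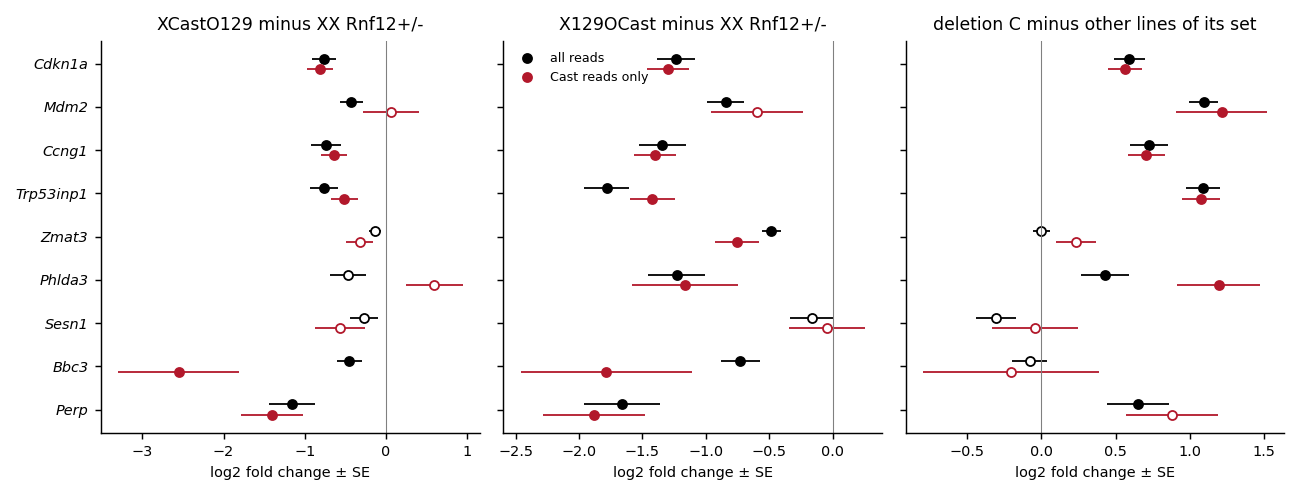
Log2 fold change with its standard error (x axis) of the 9 members (y axis) in XCastO129 and X129OCast against XX Rnf12 +/- and in deletion C against the mean of the other 11 lines of its set. Black is all reads and red is reads assigned to the Cast allele, with filled points where the adjusted p was under 0.05 and open points where it was not. In X129OCast 8 members on all reads and 7 on Cast reads were called lower, and in deletion C 6 and 5 were called higher.

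The 30 further p53 targets, a list of textbook targets that holds none of the members, moved less uniformly. In X129OCast, where 23.8% of all genes were called lower, 17 were called lower and 3 higher against Rnf12 +/-. Their median was -0.52 log2 beside -0.06 over all genes. The largest falls were Eda2r at -2.68 ± 0.18 (edgeR, adjusted p = 8.59e-10), which is X-linked and so lost a gene copy, the long non-coding RNA Trp53cor1 at -2.44 ± 0.87 (adjusted p = 0.0284, under 1 TPM in all 4 XO and all 4 XX libraries) and the death receptor Fas at -1.78 ± 0.54 (adjusted p = 0.0115). The 3 that rose were Pml (0.73), Aen (0.38) and Gtse1 (0.35). In XCastO129, where 18.5% of all genes were called lower, 7 were lower and 4 higher, with a median of -0.13. The largest falls there were Gdf15 (-2.24), Eda2r (-1.54) and Pmaip1 (-0.97), and the largest rises Pml (0.64), Gtse1 (0.38) and Tnfrsf10b (0.35). Between the XO lines 7 were lower in X129OCast, led by Eda2r (-1.14), Btg2 (-0.90) and Dcxr (-0.77), and none was higher by edgeR or by DESeq2. Without replicate 1 of Rnf12 +/-, the counts were 11 lower and 3 higher in X129OCast and 4 lower and 3 higher in XCastO129, and in X129OCast Trp53cor1 (-2.35, edgeR adjusted p = 0.0762) and Fas (-1.31, adjusted p = 0.111) were no longer called.

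The transcript of p53 itself did not fall with its targets. Trp53 was at 439 and 552 TPM in Rnf12 +/-, 535 and 627 in XCastO129 and 574 and 607 in X129OCast. Its fold change was 0.33 ± 0.13 in XCastO129 (edgeR, adjusted p = 0.0503) and 0.40 ± 0.13 in X129OCast (adjusted p = 0.0144), a call for higher in the latter only. Both were called without replicate 1 of Rnf12 +/-, at 0.50 ± 0.15 (adjusted p = 0.0146) and 0.57 ± 0.15 (adjusted p = 0.00447). Mdm4, the partner of Mdm2 in restraining p53, was at 43.1 and 57.4 TPM in Rnf12 +/-, 50.1 and 52.8 in XCastO129 and 33.5 and 34.6 in X129OCast, lower in X129OCast by -0.42 ± 0.17 (edgeR, adjusted p = 0.0493). Of 15 genes for p53 and its regulators, 6 were higher and 5 lower in X129OCast, where 45.1% of all genes were called. The largest rises were Trp53bp1 (1.17), Daxx (0.81) and Rpl11 (0.66), and the largest falls Cdkn2a (-1.75), whose Arf product restrains Mdm2, and the checkpoint kinases Atr (-0.80) and Chek1 (-0.62). In XCastO129, where 34.7% of all genes were called, 4 were higher and 4 lower. Without replicate 1 of Rnf12 +/- 5 were higher and 5 lower in X129OCast, Mdm4 among them (-0.61, edgeR adjusted p = 0.0124), and 4 higher and 3 lower in XCastO129.

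Genes that p21 and p53 hold down were read as well. Beside the counts below, 3912 of all 18316 genes were called higher and 4357 lower in X129OCast with all libraries. In XCastO129 2971 were called higher and 3390 lower. Of 17 cell cycle genes, 10 were higher and 4 lower in X129OCast (median 0.24 log2) and 6 higher and 2 lower in XCastO129 (median 0.18). Leaving out replicate 1 of Rnf12 +/- gave counts of 5 and 3 in X129OCast and 4 and 2 in XCastO129. Of 7 genes of the integrated stress response, which share some stress signals with p53, 3 were lower in each XO line and none was higher. In X129OCast these were Atf3 (-1.45), Asns (-1.28) and Ddit3 (-0.82). When that replicate was left out, 5 of the 7 were lower in each line. Pluripotency markers were lower for 5 of 8 in X129OCast, led by Nanog (-1.43), Tfcp2l1 (-1.40) and Klf4 (-1.07), and for 4 of 8 in XCastO129, the same counts as without that replicate. Their part in the lower levels of the members was not tested.

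The deletion lines were next compared with Rnf12 +/-, the reference of the study. Over 9 members and 13 lines, 32 of 117 comparisons were called, 12 higher and 20 lower, against 14.3% of gene tests pooled over the lines. The share of all genes called was 22.5% in deletion A, 17.2% in B, 12% in AB, 29.9% in C, 9.75% in C-G, 23.9% in D, 0.584% in E, 12% in F, 10.1% in H, 8.86% in I, 16.5% in I-TEL, 13.3% in J and 9.34% in K. Calls were split by gene. Trp53inp1 was lower in 9 lines (A, B, AB, D, F, I, I-TEL, J and K), from -0.58 in K to -1.16 in J. Mdm2 was lower in B, AB, D and F, Ccng1 in A, B, D and F, and Perp in H and I-TEL. Bbc3 was higher in 8 lines (A, B, AB, C, C-G, D, H and K), from 0.44 in C to 0.85 in A, and Cdkn1a was higher in A (0.65) and C (0.66). Mdm2 was higher in C (0.64), Sesn1 lower in C (-0.48) and Zmat3 higher in AB (0.30). Deletion E, the only line in the library set of the reference, had 0 calls by edgeR, with Zmat3 (0.23) and Bbc3 (0.37) at an unadjusted p under 0.05, and 0 by DESeq2.

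The number of calls depended on which reference library was kept. The shares of all genes above belong to the fit of all libraries, and those of fits that left a replicate out are not given here. Without replicate 1 of Rnf12 +/- 8 of the 117 were called, 6 of them among the 32, and without replicate 2 57 were. The mean of the 12 lines of the deletion set differed from Rnf12 +/- in 5 members, against 28% of all genes called and 16.7% called lower. Mdm2 (-0.36), Ccng1 (-0.50), Trp53inp1 (-0.70) and Perp (-0.68) were lower and Bbc3 (0.52) was higher. Without replicate 1 edgeR called none of the 5, with 3 members at an unadjusted p under 0.05. Fibroblast markers went the same way, 11 of 20 lower and none higher in the mean of the set, with sums of 920 to 1883 TPM in its 20 libraries against 3794 and 1135 in the reference. Deletion, library set and this difference cannot be told apart in these comparisons.

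Each line of the deletion set was therefore set against the mean of the other 11 lines. Of 108 comparisons 10 were called, 8 higher and 2 lower, against 8.44% of gene tests pooled. The share of all genes called was 4.92% in A, 0.344% in B, 1.99% in AB, 30.9% in C, 1.16% in C-G, 11.2% in D, 3.91% in F, 4.76% in H, 7.35% in I, 14.9% in I-TEL, 18.6% in J and 1.26% in K. Deletion C held 6 of the 10 calls, all higher, and 17.2% of all genes were called higher in that line.

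**Figure D3:**
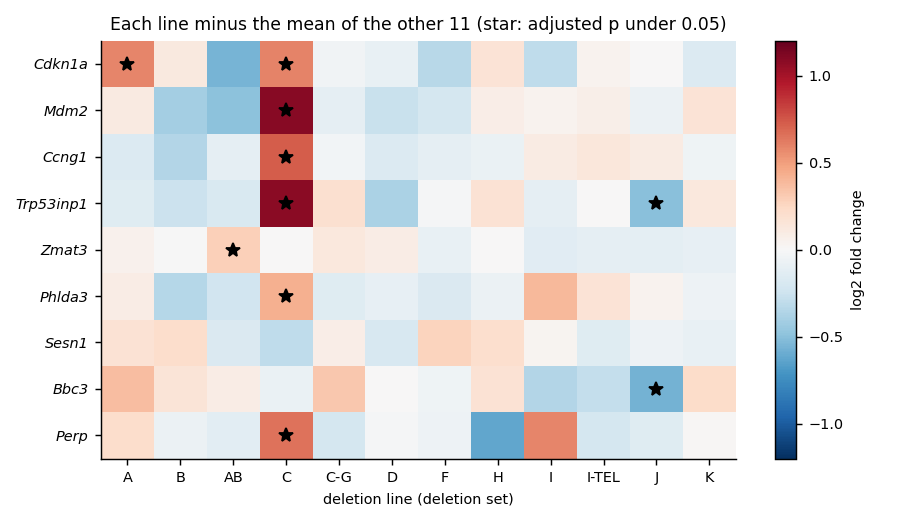
Log2 fold change (colour, red higher and blue lower) of each member (rows) in each deletion line of the deletion set (columns) against the mean of the other 11. Stars mark the 10 values with an adjusted p under 0.05, of which 6 are in the deletion C column.

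In both deletion C clones Mdm2 was at 215 and 186 TPM, the highest levels of all 30 libraries, beside 74.1, 98.1 and 120 as the lowest, median and highest of the 18 other libraries of the set. Trp53inp1 was at 153 and 133 TPM in C and at 51.5, 65.8 and 89.1 in the others. Ccng1 was at 285 and 272 TPM in C and at 144, 170 and 231 in the others. These 3 genes did not overlap between C and the rest of the set. The share of all genes without overlap was not counted, in a line where 17.2% of all genes were called higher. Cdkn1a was at 189 and 185 TPM in C and at 85.2, 125 and 188 in the others, overlapping through deletion A at 188. Perp was at 38.1 and 40.4 TPM in C beside 14.8, 24.7 and 43.6, and Phlda3 at 158 and 140 TPM beside 80.3, 114 and 174. For both genes the single library above C was clone 1 of deletion I.

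Against the other lines, Mdm2 was higher in C by 1.09 ± 0.10 log2 (edgeR, adjusted p = 1.21e-07) and Trp53inp1 by 1.09 ± 0.12 (adjusted p = 1.01e-06). Ccng1 was higher by 0.73 ± 0.13 (adjusted p = 0.000216) and Cdkn1a by 0.59 ± 0.10 (adjusted p = 0.000209). These 4 kept their call in all 25 alternative settings run. Perp, at 0.65 ± 0.21 (edgeR, adjusted p = 0.0227), and Phlda3, at 0.43 ± 0.16 (adjusted p = 0.0467), kept it in 21 and 11 of the 25, and both lost it when either clone of C was left out. Zmat3 (0.00), Bbc3 (-0.08) and Sesn1 (-0.31) were not called. Against Rnf12 +/- Mdm2 and Cdkn1a were called higher in C, as given above. Ccng1 (0.17), Trp53inp1 (0.30), Phlda3 (0.47) and Perp (-0.08) were not called against that reference. Ccng1 was at 308 TPM in replicate 1 of that reference, and Trp53inp1 at 147 and 143 TPM in deletion E.

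The further targets rose with them. Of the 30, 21 were called higher and 2 lower in deletion C, with a median of 0.47 log2 beside 0.02 over all genes, and DESeq2 called 19 higher and 2 lower. In the other 11 lines 0 to 6 of the 30 were called and the medians ran from -0.13 to 0.15. The largest rises were Sesn2, a sestrin like Sesn1, at 1.11 ± 0.10 (edgeR, adjusted p = 1.05e-07), Ppm1d, the Wip1 phosphatase that switches p53 signalling off, at 1.11 ± 0.10 (adjusted p = 1.17e-07), and the kinase gene Plk2 at 1.07 ± 0.17 (adjusted p = 5.79e-05). Ppm1d was at 54.3 and 52.8 TPM in C, 27.3 and 34.8 in Rnf12 +/- and 18.3 to 34.1 in the other 20 deletion libraries, without overlap. Gadd45a (-0.59, adjusted p = 0.00449) and Pml (-0.56, adjusted p = 5.48e-05) were the 2 that fell. Trp53 was at the level of the other lines (0.00 ± 0.10, edgeR adjusted p = 1, at 439 and 394 TPM in C), and Mdm4 was at -0.30 ± 0.13 (adjusted p = 0.0849).

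Other gene groups also differed in deletion C, where 30.9% of all genes were called. Of the 15 genes for p53 and its regulators 2 were higher, Cdkn2a (0.75) and Rchy1 (0.37), and 3 lower, Hipk2 (-0.48), Trp53bp1 (-0.39) and Chek2 (-0.39). Of the 17 cell cycle genes 9 were higher, led by Aurka (0.56), Foxm1 (0.50) and Ccnb1 (0.44), and Birc5 (-0.25) was lower. In the integrated stress response 2 of 7 were higher and 2 lower, and 4 of 8 pluripotency markers were higher. The summed fibroblast markers of C, at 1617 and 1565 TPM, were within the range of the other 18 libraries (920 to 1883), with Dcn (1.38) and Col6a1 (0.70) the only 2 of 20 called, both higher. Rlim was at 144 and 107 TPM in C, beside 50.4 to 116 in the other deletion lines, and its part in these results was not tested.

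Outside deletion C, 4 members were called within the set. Cdkn1a was higher in the single deletion A clone by 0.58 ± 0.14 (edgeR, adjusted p = 0.0238), at 188 TPM. Zmat3 was higher in the single AB clone by 0.28 ± 0.07 (adjusted p = 0.0494) at 54.3 TPM, a call kept in 8 of 25 settings. Deletion J was lower for Trp53inp1, at 51.5 and 55.4 TPM (-0.50 ± 0.14, adjusted p = 0.0145), and for Bbc3, at a mean of 48.7 TPM ± 6.02 (SD, n = 2; -0.57 ± 0.12, adjusted p = 0.00271). Both J calls were lost without clone 1 of J, and that of Trp53inp1 also without clone 2. Deletion J shares its Rnf12 +/- founder with I-TEL, where no member was called.

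Extra autosomes were looked for as a raised median over the genes of a chromosome, since the labels give no karyotype. With 3 copies in place of 2 in every cell, a shift of 0.585 log2 would be expected without compensation. Shifts above 0.3 were found 7 times: on chromosome 1 (0.53) and 14 (0.55) in clone 1 of deletion I, and on chromosome 8 in clone 2 of F (0.37), both clones of I-TEL (0.44 and 0.40) and both of J (0.42 and 0.43). None was found in the XO, wild type, Rnf12 +/- or deletion C libraries. In smaller windows of 20 Mb, the last part of chromosome 5 stood at 0.99 in clone 1 of XCastO129 and at 1.05 and 1.06 in X129OCast. Chromosome 12 windows were shifted in wild type, I-TEL and J. In wild type the first 20 Mb stood at -0.33 and -0.42. Clone 2 of F stood at 0.34 on chromosome 14 (60 to 80 Mb). X129OCast stood at -0.34 and -0.37 on chromosome 8 (40 to 60 Mb), and its clone 1 at 0.39 on the last part of chromosome 15. No member lies in these windows.

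**Figure D4:**
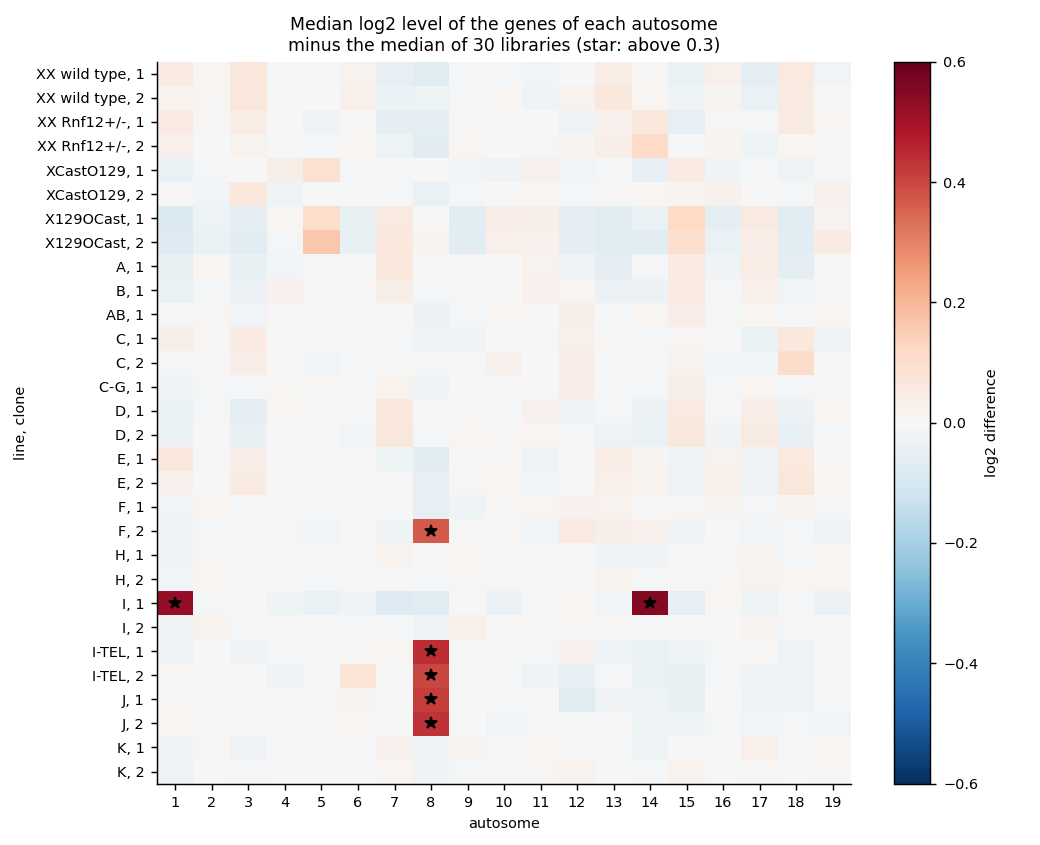
Median log2 level of the genes of each autosome (x axis) in each library (y axis) minus the median of all 30 libraries, as colour. Stars mark the 7 shifts above 0.3, on chromosomes 1, 8 and 14, in libraries of deletions F, I, I-TEL and J.

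The members did not move the same way in every library with a shift. Phlda3 is the only member on a shifted chromosome, chromosome 1, and stood at 174 TPM in clone 1 of deletion I and 113 in clone 2, a ratio of 1.54. In the same clone Perp was 1.41 times the level of clone 2, and the 7 other members were below it, from 0.688 times for Trp53inp1 to 0.982 times for Ccng1. Clone 2 of deletion F, with the chromosome 8 shift, was above clone 1 for 8 of the 9 members, from 1.03 times for Zmat3 to 1.92 times for Perp, with Phlda3 at 1.5, Cdkn1a at 1.4, Bbc3 at 1.31 and Sesn1 at 1.28 times. Mdm2, at 0.989 times, was the exception. With 1 library for each such contrast there was no replicate check. In I-TEL and J, where both clones carried the shift, the 9 members gave the 2 lower calls in J named above and none in I-TEL.

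Reads that overlap a strain variant were used to ask which allele carried the changes. Over all 30 libraries the 129 share was 62.0% for Cdkn1a (95% Wilson interval 61.2 to 62.7%, 15917 allelic counts) and 49.6% for Trp53inp1 (48.6 to 50.7%, 8401 counts), intervals that cover counting error only. Autosomal genes as a whole ranged from 49.8 to 54.0% between libraries. The 129 share of Cdkn1a was 75.1% in replicate 1 and 54.2% in replicate 2 of Rnf12 +/-, and that of Ccng1 73.5% and 56.7%. The fibroblast markers had a 129 share of 76.4% and 60.6% in these libraries. Cast reads alone were therefore fitted as an alternative chosen after the data were seen.

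**Figure D5:**
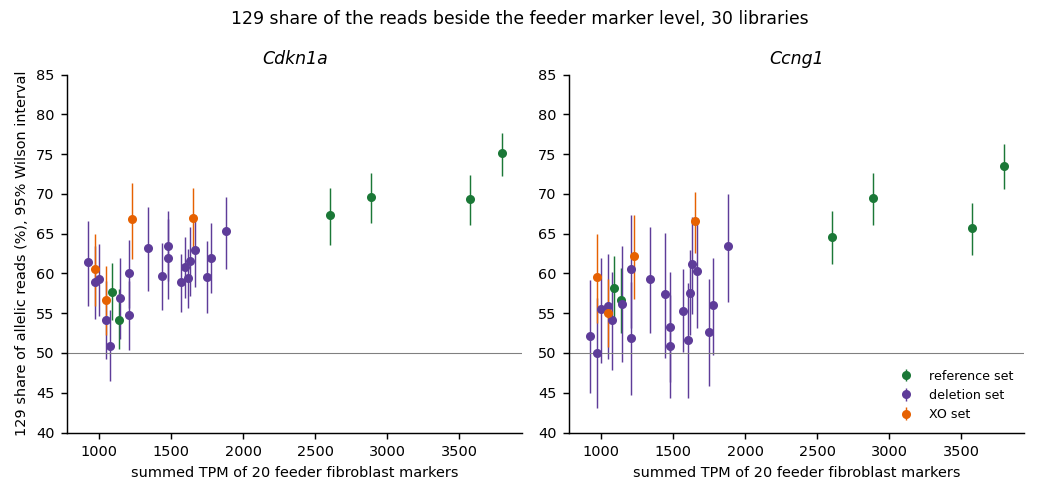
Share of 129 reads among allelic reads (y axis, percent, with 95% Wilson interval) for Cdkn1a and Ccng1 beside the summed level of 20 fibroblast markers (x axis, TPM) in 30 libraries coloured by set. The 4 points farthest to the right, all of the reference set, have shares above 64% for both genes.

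Scaled to all reads assigned to Cast (CPM), Cdkn1a was at 220 and 268 in Rnf12 +/-, 135 and 128 in XCastO129, 101 and 78.8 in X129OCast and 450 and 458 in deletion C. Replicate 1 of the reference was no longer the higher one, while on 129 reads it was, at 566 and 300 CPM. Trp53inp1 was at 207 and 181 CPM of Cast reads in Rnf12 +/-, 126 and 132 in XCastO129, 73.2 and 57.5 in X129OCast and 360 and 315 in deletion C. The order of the groups was thus the same as on all reads. Shares of all genes called belong to the fits of all reads, and none is given for Cast reads. In X129OCast 7 members were called lower on Cast reads, with Cdkn1a at -1.30, Ccng1 at -1.40 and Trp53inp1 at -1.42 log2. Mdm2, with 18 and 16 Cast reads there, was not (-0.60, edgeR adjusted p = 0.211). Bbc3 was among the 7 on only 4 and 3 Cast reads. In XCastO129 5 were called lower, Bbc3 among them on 1 and 3 Cast reads, and Mdm2 was at 0.06. In deletion C 5 were called higher: Cdkn1a (0.56), Mdm2 (1.21), Ccng1 (0.71), Trp53inp1 (1.07) and Phlda3 (1.195). The mean of the set differed from Rnf12 +/- on Cast reads in 2 members, Cdkn1a higher (0.40) and Ccng1 lower (-0.46).

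The pattern of the members over the 20 libraries of the deletion set was summarised as the mean of their standardised log2 levels, and 11982 genes were ranked by their correlation with it. The highest were Ckap2, a cytoskeleton gene on the list of further targets, with r = 0.89, Hp1bp3 (0.89), Cramp1l (0.87), Camsap1 (0.86) and Dnm1 (0.85, level with Spag9). The lowest were Rcc1 (-0.88), Ppil1 (-0.86), Mrps27 (-0.85), Drg2 (-0.84) and Yars (-0.84). All points share a library set, and the 2 deletion C libraries are at the top of the pattern. Over the other 18 libraries the r of Ckap2 was 0.77 and that of Rcc1 -0.68. Among the members the 36 pairwise correlations ran from -0.51 to 0.86 with a median of 0.25, and without deletion C from -0.44 to 0.65 with a median of 0.07.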

How the data were processed

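RNA-seq was made from 30 libraries of female mouse embryonic stem cells in 17 conditions, with poly(A)-selected, stranded libraries. Per the study's methods and processing notes, the authors trimmed reads with Trim Galore 0.6.7, aligned them to an mm10 genome with strain variants masked using HISAT2 2.2.1, split them by allele, merged them with SAMtools 1.10 and deposited raw counts per gene for all reads, for 129 reads and for Cast reads. The methods name featureCounts as the counter and the processing notes HTSeq 0.12.4, so the counter is not settled. Counts carry no molecular identifiers.

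Gene symbols and exon lengths came from GENCODE M21, which matched 55240 of 55421 identifiers. A gene entered the test when 2 or more libraries held 10 or more of its counts (18316 genes), with edgeR 4.0.16 in R 4.3.3 (quasi-likelihood, 1 term per condition over all 30 libraries, TMM factors from autosomal genes, Benjamini-Hochberg per comparison). Standard errors were the log2 fold change divided by the root of F. The script was tested on simulated data. Alternatives were DESeq2 1.42.0, other size factors and filters, a replicate block, fits of the compared groups alone, each replicate left out and, added after the data were seen, counts of 1 allele and a block within the XX libraries. Same-numbered libraries deviated together in some pairs of conditions and not in others (78 pairs, correlations from -0.468 to 0.8, median 0.005, 31 over 0.1). The highest was between wild type and Rnf12 +/-. The labels give no shared origin, so the numbers were not used as pairs. Within each condition the libraries differed by more than sampling noise.

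All members were named in every comparison. From the lists of further targets, p53 regulators, cell cycle, stress, pluripotency, fibroblast, lineage and two-cell-like genes, counts are given with up to 3 of the largest called changes per direction for those discussed. Members and lists were chosen by name, with earlier results of these data known. One clone of deletion A and the deletion G clones, which the study excluded, were not analysed here. Depth was 8816184 to 21181405 counts per library. Allele shares have 95% Wilson intervals.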

Additional observations from a re-analysis of the deposited data

Results flagged for a closer look

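The differences below were picked out because a test of the difference between 2 lines or groups of lines passed the threshold in edgeR's quasi-likelihood fit (adjusted p under 0.05). Between the XO lines these were Trp53inp1 (-1.02 log2) and Zmat3 (-0.35), both lower in X129OCast in 2 of 2 libraries. Among the deletion lines, deletion C was above the mean of the other 11 lines of its set for Mdm2 (1.09), Trp53inp1 (1.09), Ccng1 (0.73), Perp (0.65), Cdkn1a (0.59) and Phlda3 (0.43). Single-clone lines gave Cdkn1a in deletion A (0.58) and Zmat3 in deletion AB (0.28), and deletion J gave Trp53inp1 (-0.50) and Bbc3 (-0.57).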

How the results depend on the processing

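Of the 983 values that the 63 called results took in other settings, 793 kept direction and call, 179 kept the direction only and 11 reversed. The 8 calls in X129OCast against Rnf12 +/- numbered 8 in every planned setting, leave-one-out included, and 4 on 129 reads alone. The 6 calls in XCastO129 became 1 in a fit of the compared groups alone and 3 to 6 with a replicate left out, the fewest without replicate 1 of Rnf12 +/-. The 2 calls between the XO lines became 5 with DESeq2, 5 without a filter, 0 in a fit of those lines alone, 1 on 129 reads and 1 to 2 with a replicate left out. The 32 calls of the deletion lines against Rnf12 +/- became 51 without a filter, 10 on Cast reads, 11 on 129 reads and 8 to 57 with a replicate left out, where the end values came from leaving out replicate 1 and replicate 2 of Rnf12 +/-. The 10 calls within the set became 18 without a filter, 17 in a fit of its 20 libraries alone, 6 on Cast reads, 4 on 129 reads and 6 to 12 with a replicate left out, the fewest without clone 1 of deletion J. The 5 calls in the mean of the set became 2 on Cast reads, 2 on 129 reads and 0 to 5 with a replicate left out, and Rnf12 +/- against wild type gave 1 call without a filter. The cause of these moves was not tested, and the shares of all genes called in these settings are not given here. On Cast reads Mdm2 reversed in XCastO129 (0.06) and deletion B (0.21), and Bbc3 reversed against Rnf12 +/- in A (-1.09), AB (-0.34), C (-0.32), C-G (-0.33), H (-0.13) and the mean of the set (-0.14). On 129 reads Bbc3 reversed in D (-1.70) and Trp53inp1 in I-TEL (0.035) and K (0.10). Bbc3 had 1 to 16 Cast counts per library and Mdm2 4 to 33. With the replicate block the 7 comparisons gave 0, 6, 8, 2, 32, 11 and 5 calls, so the block moved no count by over 1.5 times, and a block within the 4 XX libraries only also gave 0 for Rnf12 +/- against wild type. In levels as TMM-scaled CPM, 43 means of conditions were above Rnf12 +/-, beside 54 in TPM. The 7 autosome shifts were the same number against libraries of the same set.

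Most conditions rest on 2 clones and 4 lines on 1, and a lone library was assumed to vary like the others. XO lines, most deletion lines and the reference were sequenced in different sets. Feeder content was read from transcripts only, and p53 protein was not measured here.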

Other observations

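Of 13 lineage markers, 12 could be tested. In X129OCast against Rnf12 +/-, Krt7 (1.47), T (1.16) and Eomes (0.99) were higher and Sox1 (-2.14) and Gata4 (-1.36) lower, and in XCastO129 T (1.51) was higher and Sox1 (-2.53) lower (log2, edgeR's quasi-likelihood test, adjusted p under 0.05). The calls of Krt7, T and Sox1 in X129OCast and of Sox1 in XCastO129 were lost without replicate 1 of Rnf12 +/-. In deletion C against the other lines of its set Krt7 (1.52) was the 1 marker called. Of the 7 two-cell-like markers, transcripts of a rare cell state in these cultures, 5 could be tested. In each of deletions J and I-TEL, the lines of the second founder, 4 of them were called higher against the other lines of the set and none lower, with medians of 2.96 and 2.42 log2 beside 0.03 over all genes. Members were called in J (Trp53inp1 and Bbc3, both lower) and not in I-TEL. Of the lineage markers 5 were higher and 1 lower in J, and 1 higher and 1 lower in I-TEL. Against Rnf12 +/-, Zscan4c, a two-cell-like marker, was called higher in both XO lines when replicate 1 of the reference was left out, and in neither with it.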
